A study of Homo sapiens with 8 samples.

Results

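RNA-seq read counts of 10 genes of the lung epithelium were examined in 8 libraries. The cells carry the label A549, the name of a line grown from a human lung adenocarcinoma. Part of the data went against that label, since CDKN2A, CDKN2B and MTAP, which A549 is known to lack, had at least 1328, 466 and 653 counts in every library. The genes examined were chosen by name from the 58735 genes of the count table, by their known roles and not by a threshold on their levels, although earlier results of these data were known. They comprise the lineage transcription factors NKX2-1, FOXA1, FOXA2 and GATA6, the surfactant protein genes SFTPA1, SFTPA2, SFTPB, SFTPC and SFTPD, and NAPSA, the gene of an aspartic protease of alveolar cells. All 10 were found in the table under these names. The 4 libraries of the EV group came from cells transduced with an empty lentiviral vector and the 4 of the KRT19 group (KRT19-OVE in the labels) from cells transduced with a lentivirus encoding Flag-tagged KRT19, an intermediate filament keratin of epithelial cells. Both groups were stable lines selected with puromycin and grown in RPMI-1640 with fetal bovine serum, and no treatment was given. The labels do not say whether the replicates were separate cultures, so p-values measure the spread between these libraries, which may be technical.

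In the lung, NKX2-1 marks epithelium from the first lung bud onward and acts with FOXA1, FOXA2 and GATA6 on the genes of alveolar type II cells. These cells make surfactant, a film of phospholipid and protein that keeps the alveoli from collapsing. SFTPB and SFTPC encode small hydrophobic proteins that spread the film, SFTPA1, SFTPA2 and SFTPD encode collectins of innate defence, and napsin A helps to cut the SFTPB precursor. NKX2-1 and napsin A are stained in pathology to identify lung adenocarcinoma.

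The sequences directly upstream of both surfactant protein A genes are shown first, because they carry the letters recognised by 2 of the lineage factor families and both genes then gave no reads. The 250 bases before 1 start site of each gene were taken from RefSeq (GRCh38.p14) and are written 5′ to 3′ on the strand of the gene, with matches in capitals. SFTPA1 is read from the plus strand (chr10:79610689-79610938) and SFTPA2 from the minus strand (chr10:79560408-79560657).
SFTPA1: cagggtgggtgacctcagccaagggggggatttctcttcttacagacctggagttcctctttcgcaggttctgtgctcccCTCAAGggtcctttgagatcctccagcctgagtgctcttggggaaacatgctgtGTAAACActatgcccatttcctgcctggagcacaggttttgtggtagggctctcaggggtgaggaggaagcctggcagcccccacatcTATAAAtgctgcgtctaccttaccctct
SFTPA2: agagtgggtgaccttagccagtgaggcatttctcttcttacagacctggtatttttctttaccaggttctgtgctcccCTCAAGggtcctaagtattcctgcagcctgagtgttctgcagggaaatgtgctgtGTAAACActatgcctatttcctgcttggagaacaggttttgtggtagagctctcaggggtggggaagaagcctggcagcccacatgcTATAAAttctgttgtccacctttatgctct
Capitals mark, in order along each sequence, the NKX2-1 letters CTCAAG, a FOXA match (TGTTTAC or TATTTAC, here read on the other strand) and a TATA box (TATAAA). Both strands were searched, and the matches do not overlap one another. The 2 sequences were identical in 213 of 254 alignment columns (83.9%). Of 35116 upstream windows of the same length in the RefSeq table, 5.27% held a FOXA match, 10.4% the NKX2-1 letters and 10.7% the TATA box. The GATA letters AGATAA or TGATAA, found in 14.6% of all windows, were in neither of the 2. In all, 1 window was searched for each of 8 of the genes, although the RefSeq table holds 2 for SFTPA2, SFTPB, NAPSA and NKX2-1, and none was searched for SFTPC and FOXA2. The windows searched for SFTPD, SFTPB, NAPSA, NKX2-1 and GATA6 had no match to any of the 4 motifs, and that of FOXA1 had 1 match to the NKX2-1 letters. Some of these windows lie partly within the gene. Annotated exons covered 191 bases for NAPSA, 146 for GATA6, 99 for FOXA1, 54 for NKX2-1 and 52 for SFTPB. No annotated transcript began within 50 bases of the start site used for GATA6 or FOXA1. A match describes letters, not a bound site.

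The question put to the libraries was which of the 10 genes were present. A gene was called above the floor in a library when it had more than 3 counts, which at these depths (14073065 to 17054364 counts per library) equals 0.176 to 0.213 CPM (counts scaled to a fixed library size, with TMM factors). Above the floor in all 8 libraries were 2 of the 10 genes, GATA6 and FOXA1. A further 2, NKX2-1 and NAPSA, were above it in some libraries, and the other 6 were above it in none. By comparison, 25.5% of all genes of the table and 62.9% of its protein-coding genes were above the floor in all 8 libraries. The counts of all 10 genes are plotted by library.

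**Figure D1:**
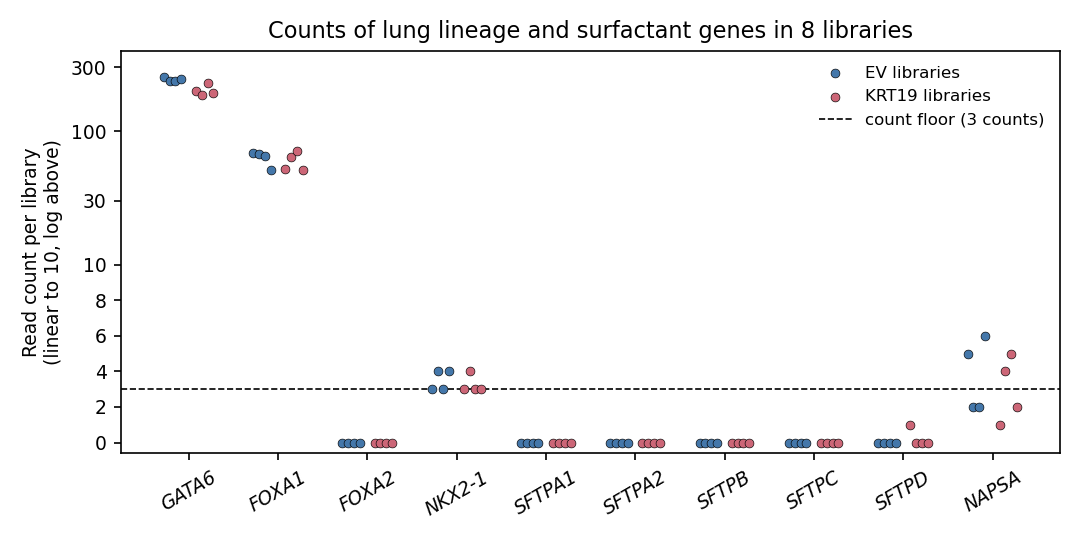
Read counts (vertical axis, linear to 10 and logarithmic above) of the 10 genes in each of 4 EV (blue) and 4 KRT19 (red) libraries, with replicates in order from left to right and the floor of 3 counts as a dashed line. GATA6 lies between 186 and 255 counts and FOXA1 between 51 and 71, NKX2-1 and NAPSA straddle the floor, and the other 6 genes sit at 0 apart from 1 count of SFTPD.

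GATA6, the zinc finger factor that acts in endoderm and in the maturing alveolus, was the most abundant of the 10. Its counts were 255, 237, 236 and 245 in EV replicates 1 to 4 and 200, 186, 231 and 193 in KRT19 replicates 1 to 4. All libraries were far above the floor. The gene (ENSG00000141448) is a plus-strand gene of chromosome 18 (22169443 to 22202528, GRCh38). On the per-length scale (RPKM, CPM per kilobase of the gene length in the table), its level was 3.54 ± 0.374 (SD, n = 8), above that of 61.7% of protein-coding genes. Genes of the opposite strand share 14.2% of its exon bases, and the one with most reads, GATA6-AS1, had 17 to 27 counts per library.

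FOXA1, a forkhead factor that opens chromatin for other regulators, had 68, 67, 65 and 51 counts in EV replicates 1 to 4 and 52, 64, 71 and 51 in KRT19 replicates 1 to 4. The groups overlapped in both directions. FOXA1 (ENSG00000129514) is a minus-strand gene of chromosome 14 (37589984 to 37596059). Its per-length level was 0.965 ± 0.151 RPKM (SD, n = 8), above that of 48.0% of protein-coding genes. The opposite-strand gene TTC6 shares 16 of its 3982 exon bases.

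FOXA2, the close relative of FOXA1 that can share its work in lung epithelium, had 0 counts in all 8 libraries. The 8 libraries together held 128073011 counts, and a count of 0 over all of them allows up to 0.0235 CPM or, for the exon length of FOXA2, 0.00901 RPKM. With FOXA2 set at this floor of 3 counts over the 8 libraries, FOXA1 was at least 107-fold higher per length and GATA6 at least 392-fold. FOXA2 (ENSG00000125798) is a minus-strand gene of chromosome 20 (22581005 to 22585455). An overlapping gene on the same strand shares 2.69% of its exon bases and also had 0 counts. No 75-base word of its transcripts occurs in the transcripts of another gene.

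NKX2-1, the homeobox factor also known as thyroid transcription factor, was at the floor. It had 3, 4, 3 and 4 counts in EV and 3, 4, 3 and 3 counts in KRT19 replicates 1 to 4. All 8 libraries therefore held reads of the gene, and 3 libraries passed the floor by a single count. Over all libraries this made 27 counts (exact 95% Poisson interval 17.8 to 39.3, counting error only). The per-length level was 0.0671 ± 0.0120 RPKM (SD, n = 8), which 66.1% of protein-coding genes exceeded. NKX2-1 (ENSG00000136352) is a minus-strand gene of chromosome 14 (36516392 to 36521149) and shares 12.7% of its exon bases with its antisense gene NKX2-1-AS1, which had 0 counts.

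The levels of the 4 genes with reads in every library fell into 3 steps. GATA6 was 3.67-fold above FOXA1 per length. FOXA1, at 0.754 to 1.14 RPKM, was above NKX2-1, at 0.0555 to 0.0899 RPKM and close to the floor. In both cases the ranges over the 8 libraries did not overlap. NKX2-1 and NAPSA, at 0.0593 ± 0.0320 RPKM (SD, n = 8), had overlapping ranges and no order between them could be read. The histogram of levels places the 4 genes among all protein-coding genes with reads.

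**Figure D2:**
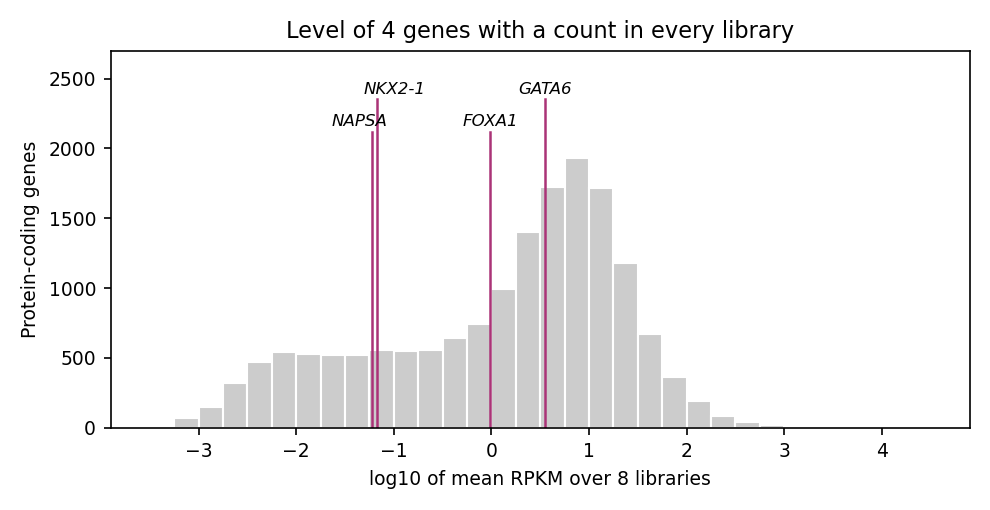
Number of protein-coding genes (vertical axis) by the log10 of their mean RPKM over the 8 libraries (horizontal axis, genes with at least 1 count), with purple lines at 4 genes. GATA6 and FOXA1 stand left of the highest bar and NKX2-1 and NAPSA in the low tail.

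The surfactant protein genes gave 1 read in all. SFTPA1, SFTPA2, SFTPB and SFTPC had 0 counts in each of the 8 libraries, and SFTPD had 1 count in KRT19 replicate 1 and 0 in the other 7 libraries. With FOXA2, 5 of the 10 genes were at 0 in every library, as were 17.2% of all protein-coding genes. A count of 0 over the 8 libraries allows a level of up to 0.00571 RPKM for SFTPB and up to 0.00957 RPKM for SFTPA1. SFTPD, with its 1 count, was below the floor in both groups, and the other 4 surfactant protein transcripts were not detectable at this depth.

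SFTPB (ENSG00000168878) lies on chromosome 2 from 85657314 to 85668741, and SFTPC (ENSG00000168484) on chromosome 8 from 22156913 to 22164479. SFTPA2 (ENSG00000185303), SFTPA1 (ENSG00000122852) and SFTPD (ENSG00000133661) lie on chromosome 10, starting at 79555852, 79610939 and 79937740. SFTPA1 and SFTPA2 are closely similar genes, and reads that match both can be lost in counting. The share of 75-base words of one that occur exactly in the other was 13.7% for SFTPA1 and 12.6% for SFTPA2. Most exact words of each gene were therefore its own. How reads of the 2 genes were assigned was not tested, since the multiple-match settings were not given. SFTPB shares none of its words or exon bases with another gene.

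NAPSA, which serves in surfactant processing, had 5, 2, 2 and 6 counts in EV and 1, 4, 5 and 2 counts in KRT19 replicates 1 to 4. It passed the floor in 2 libraries of each group, and the groups overlapped. NAPSA (ENSG00000131400) is a minus-strand gene of chromosome 19 (50358477 to 50365830), and 2.57% of its words occur in its pseudogene copy NAPSB. Its 27 counts equalled those of NKX2-1.

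To determine whether the lung genes differed with KRT19, EV and KRT19 libraries were compared by edgeR over all 14621 genes with enough counts, and 2 of the 10 genes, GATA6 and FOXA1, passed that filter. KRT19 itself checks the group labels. It had 1 to 5 counts in EV and 4353 to 5147 in KRT19 libraries and was the 1 gene of the table with an adjusted p under 0.05 (0.00684% of the genes tested). Neither GATA6 nor FOXA1 passed the adjusted threshold.

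GATA6 was at 16.97, 14.28, 14.36 and 14.41 CPM in EV replicates 1 to 4 and at 12.07, 13.23, 13.53 and 12.77 CPM in KRT19 replicates 1 to 4. The highest KRT19 library was below the lowest EV library, so the groups did not overlap. This was true of 3.44% of the genes tested, and 1.81% were lower without overlap. EV libraries averaged 15.01 ± 1.31 CPM and those of the KRT19 group 12.9 ± 0.632 CPM (SD, 4 libraries per group). On the log2 scale GATA6 differed by -0.22 ± 0.089 (SE), or -13.9%. In bulk libraries, fewer cells with the transcript and less of it per cell cannot be told apart. The adjusted p was 0.906 in edgeR's quasi-likelihood test and the unadjusted p was 0.0258, a level at which 2.56% of the genes tested were lower and 2.85% higher. The exact permutation p of 0.0286 (two-sided) was the smallest that 4 libraries against 4 allow. Without EV replicate 1, the highest library, the log2 fold change was -0.15 and the unadjusted p from edgeR was 0.104.

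FOXA1 averaged 3.88 ± 0.638 CPM over EV libraries and 3.81 ± 0.661 CPM over those of the KRT19 group (SD, 4 libraries per group). Its difference of -0.027 ± 0.17 (log2, SE; adjusted p = 0.987, edgeR) was smaller than the replicate spread (exact permutation p = 0.971, two-sided). NKX2-1 averaged 0.215 ± 0.0282 CPM over EV and 0.210 ± 0.0506 CPM over KRT19 replicates (SD, exact permutation p = 0.800, two-sided). NAPSA averaged 0.232 ± 0.128 and 0.192 ± 0.115 CPM (SD, exact permutation p = 0.571, two-sided). Both values lie about the floor, where a difference was not detectable at this depth. The plot of GATA6 and FOXA1 shows both groups.

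**Figure D3:**
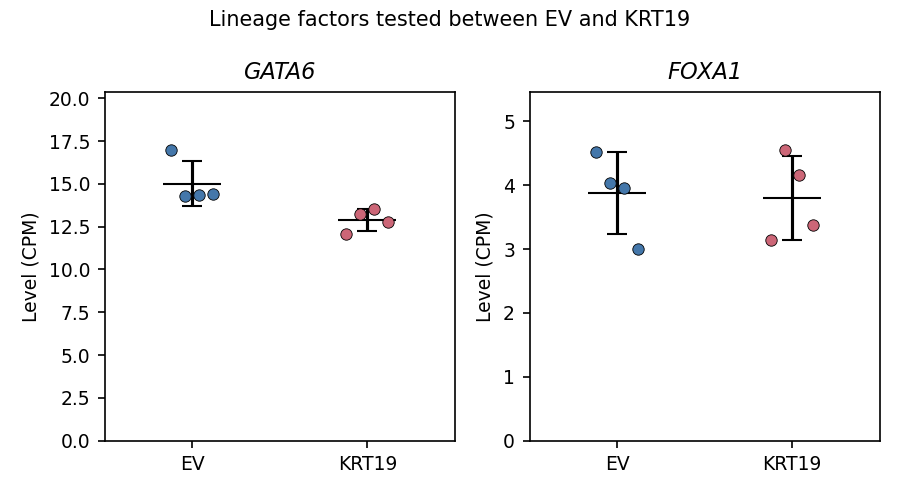
Level in CPM (vertical axis, from 0) of GATA6 (left) and FOXA1 (right) in EV (blue) and KRT19 (red) libraries, 1 point per library, with the mean as a bar and the SD as whiskers (n = 4 each). GATA6 points of the KRT19 group, up to 13.5 CPM, lie below all EV points, from 14.3 CPM, while the FOXA1 points of both groups overlap.

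By a Pearson correlation of log2 CPM over the 8 libraries, the profile of GATA6 was most like those of NPEPPS (r = 0.979) and FKBP1A (0.956), and that of FOXA1 most like PPFIA1 (0.966) and C11orf71 (0.957). These are the highest of 14620 values each over 8 points that share library depth, and are given as descriptions. The correlations span both groups and so include any difference between them. NPEPPS, like GATA6, did not overlap between the groups (means of 249 CPM in EV and 230 CPM in KRT19), as 3.44% of the genes tested did not. FKBP1A did overlap.

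Genes around the 10 in the alveolar programme were then examined from lists chosen with earlier results of these data known. Of 14 further genes of type II cells, 8 were above the floor in all 8 libraries, 2 in some and 4 in none. Of all protein-coding genes, 62.9% were above the floor in all 8 libraries, the share to set beside the lists below as well. Highest in the type II list were ETV5, a factor downstream of FGF signals (23.2 ± 0.806 RPKM), ABCA3, the lipid pump of the lamellar body (10.9 ± 0.751 RPKM), and LPCAT1, which remodels surfactant phospholipid (7.04 ± 0.428 RPKM, SD, n = 8 each). The 4 in none were SFTA2, SFTA3, the phosphate carrier SLC34A2 and the pepsinogen PGC, and the highest count of these in any library was 2. None of its 8 tested genes passed the adjusted threshold or an unadjusted p under 0.05 in edgeR, where 5.41% of all tested genes were under 0.05, and the median log2 fold change was -0.023 against 0.0051 for all tested genes.

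Surfactant lipid synthesis genes were above the floor in all 8 libraries for 15 of 16. SCD, the stearoyl-CoA desaturase, was at 1006 ± 89.6 RPKM, FASN, the fatty acid synthase, at 159 ± 14.3 RPKM, and SREBF1, which activates both, at 67.2 ± 4.63 RPKM (SD, n = 8 each). None of the 15 tested genes passed the adjusted threshold in edgeR, and 2 were lower at an unadjusted p under 0.05 (2.56% of all genes tested), SCD (log2 fold change -0.20 ± 0.051 SE) and the lipid droplet coat gene PLIN2 (-0.13 ± 0.056 SE). The median log2 fold change of the list was -0.059.

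Of 21 other regulators of lung epithelium, 16 were above the floor in all 8 libraries and 5 in none. The highest were SOX9, a factor of the growing lung tip, at 45.1 ± 2.53 RPKM, WWTR1, the Hippo pathway coactivator TAZ, at 24.6 ± 1.72 RPKM (SD, n = 8 each), and ETV5. The 5 in none were the epithelial factors ELF3, ELF5 and GRHL2 and the Iroquois factors IRX1 and IRX2. FOXP2, a forkhead repressor, was the 1 of 15 tested genes at an unadjusted p under 0.05 (0.40 ± 0.19 higher in KRT19 on the log2 scale, SE; 2.85% of all genes tested were higher at that level), and 0 passed the adjusted threshold in edgeR. FOXP2 was not under 0.05 in DESeq2 or limma-voom, and limma-voom had WWTR1 under it. The median log2 fold change of the 15 tested genes was 0.015.

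Among 21 relatives of the 10 genes, 9 were above the floor in all 8 libraries and 9 in none. PSAP, the saposin precursor related to SFTPB, was at 134 ± 7.45 RPKM, CTSD, a lysosomal aspartic protease of the napsin family, at 17.1 ± 1.09 RPKM, and the homeobox factor NKX2-4 at 2.45 ± 0.380 RPKM (SD, n = 8 each). NKX2-4 was thus above its relative NKX2-1 in per-length level. The third FOXA factor, FOXA3, had 3 to 14 counts per library and passed the floor in 7 libraries. None of the 8 tested relatives was under an unadjusted p of 0.05 in edgeR (5.41% of all genes tested), PSAP was under it in DESeq2, and their median log2 fold change was -0.017.

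Type I cell genes were above the floor in all 8 libraries for 4 of 8, against 62.9% of all protein-coding genes. The highest were CAV1, which shapes caveolae (88.1 ± 2.37 RPKM), RTKN2 (2.70 ± 0.371 RPKM) and EMP2 (1.96 ± 0.115 RPKM, SD, n = 8 each). Of other markers of the type I cell, AGER was above the floor in all 8 libraries (26 to 48 counts), while PDPN and HOPX had 0 counts in every library. Of 12 airway genes, 0 were above the floor in all libraries, and the secretoglobin SCGB1A1 and the basal keratin KRT5 were at 0. Of 14 gut, liver and pancreas factors, 4 were above the floor in all libraries, with ONECUT1 (0.290 RPKM), HNF4G (0.275 RPKM) and ONECUT2 (0.118 RPKM) highest. None of the tested type I genes and gut factors was under an unadjusted p of 0.05 in edgeR (5.41% of all genes tested), and no airway gene had enough counts to be tested. The median log2 fold change was 0.0081 for the type I genes and 0.011 for the gut factors, over 4 and 3 tested genes.

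The cell line label was checked by the same floor, and part of the data went against it. CDKN2A, CDKN2B and MTAP lie in a deletion on chromosome 9 that is known for A549, and they had 1328 to 1824, 466 to 659 and 653 to 870 counts per library. All 3 were above the floor in all 8 libraries. Of 22 genes that A549 is known to express, 9 were above the floor in all libraries, led by NQO1 (135 ± 3.23 RPKM), TXNRD1 (125 ± 6.29 RPKM) and KRT18 (97.2 ± 6.62 RPKM, SD, n = 8 each), 4 in some and 9 in none. KRT19 is counted among the 4 through the 4 libraries that carry its vector and 1 EV library, and it had 1 to 5 counts in EV libraries. Apart from KRT19, TXNRD1 was higher (log2 fold change 0.12 ± 0.043 SE) and SERPINA1 lower in the KRT19 group at an unadjusted p under 0.05 (2.85% and 2.56% of all genes tested), and neither of these passed the adjusted threshold in edgeR. With limma-voom, KRT7 was under 0.05 as well. The epithelial adhesion genes CDH1 and EPCAM had at most 1 and 3 counts, and AGR2 and the fibrinogens FGA and FGB had 0. Of the reductase and dehydrogenase genes of the list, AKR1C3, ALDH1A1 and ALDH3A1 had at most 2, 3 and 4 counts. AKR1B10 had 1 to 14 counts. AKR1C1 (10 to 22 counts) and AKR1C2 (14 to 47 counts) were above the floor in all 8 libraries. The cells are therefore called cells labelled A549 here, and absence of the surfactant transcripts is a statement about these libraries.

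Lists of other tissues gave 6 of 9 kidney development factors above the floor in all libraries, against 62.9% of all protein-coding genes. Among the 6 were WT1 (2.13 ± 0.188 RPKM) and PAX8 (1.02 ± 0.177 RPKM, SD, n = 8 each). Of the others, SALL1 had 0 counts, SIX2 at most 2, and PAX2 had 0 to 8 and passed the floor in 3 libraries. Retinal genes were examined because the label text on RNA extraction names retina. Of these, 2 of 12 were above the floor in all libraries, ARR3 (0.454 RPKM) and NRL (0.292 RPKM), and RCVRN and SAG had 0 counts. Neuroendocrine genes gave 2 of 7, CHGB (1.95 ± 0.202 RPKM) and SYP (0.562 ± 0.0728 RPKM, SD, n = 8 each), with INSM1 at 0. Squamous genes gave 0 of 5, with KRT5, KRT6A, KRT14 and DSG3 at 0. Leukocyte, endothelial and fibroblast genes of the lung gave 2 of 9, COL1A1 (0.255 RPKM) and PECAM1 (0.142 RPKM), with PTPRC at no more than 1 count in any library. No squamous gene had enough counts to be tested, and none of the tested genes of the other 4 lists was under an unadjusted p of 0.05 in edgeR (5.41% of all genes tested). PECAM1 was under it in limma-voom. The median log2 fold change was 0.15 for the kidney, -0.19 for the retinal, 0.094 for the neuroendocrine and -0.25 for the last list, over 6, 2, 2 and 2 tested genes.

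Summed levels of whole lists are given as a description with no test. Ranges that did not overlap between the groups are named, and 3.44% of single tested genes did not overlap, while no such share was computed for sums. The kidney list summed to 33.5 to 35.3 CPM in EV and 35.4 to 36.6 CPM in KRT19 libraries. The airway list summed to 0.706 to 1.14 CPM in EV and 0.284 to 0.644 CPM in KRT19 libraries, with most of its reads from TPPP3 (3 to 13 counts per library). The list of genes known for A549 did not overlap either, and it holds KRT19 itself. Leaving KRT19 aside, 0 of 74 tested genes of all 14 lists passed the adjusted threshold in edgeR, where 2 were higher and 3 lower at an unadjusted p under 0.05 (2.85% and 2.56% of all genes tested). With DESeq2, 1 of the 74 passed, SERPINA1, and with limma-voom 0 did. At an unadjusted p under 0.05, 1 was higher and 4 lower with DESeq2, and 1 higher and 6 lower with limma-voom. Of all 14621 genes tested, 581 and 1337 were under 0.05 in these 2 tools, in either direction. In edgeR, SERPINA1, a secreted serpin, differed by -0.40 ± 0.077 (log2, SE; adjusted p = 0.274). It was named after its value was seen. The counts by list are drawn as bars.

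**Figure D4:**
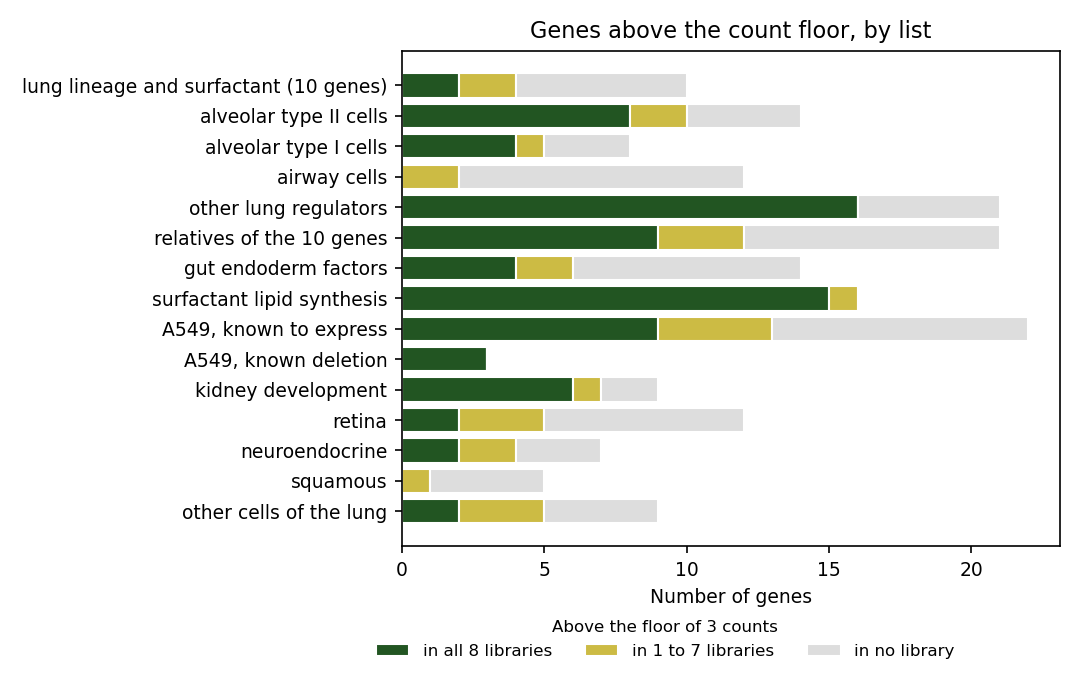
Number of genes (horizontal axis) above the floor of 3 counts in all 8 libraries (green), in 1 to 7 libraries (yellow) and in none (grey), for the 10 lung genes and 14 lists. The 10 lung genes have 2 in all libraries, against 15 of 16 for surfactant lipid synthesis, 3 of 3 for the A549 deletion and 0 of 12 for airway cells.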

How the data were processed

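Total RNA of 4 EV and 4 KRT19 libraries was sequenced after NEBNext Ultra library preparation. The authors deposited raw read counts per gene, 1 column per library, without normalization, together with gene coordinates and a length in bases. The submitters' processing notes name hg38, Bowtie 0.12.2, featureCounts 1.5.0-p3 and DESeq2. Strand and multiple-match settings were not given in the sources used here, so overlapping, antisense and closely similar genes carry uncertain counts. All 10 genes had the coordinates and exon length of GENCODE 29.

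Groups and replicate numbers were taken from sample titles. The test of the counts was edgeR 4.0.16 in R 4.3.3 (filterByExpr, TMM, glmQLFit, glmQLFTest, two-sided, Benjamini-Hochberg over 14621 genes, threshold 0.05), which kept 99.8% of the counts of each library or more. DESeq2 1.42.0 and limma 3.58.1 (voom) were alternatives, as were other scalings, filters and floors, the replicate block and leaving out each library. Standard errors are the log2 fold change over the root of F. Exact permutation tests used log2 CPM with a prior count of 2. Replicates of 1 group differed by more than sampling noise (chi-square per degree of freedom 2.67 to 12.4). The procedure was tested on simulated data.

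The 10 genes and the lists were chosen with earlier results of these data known. Named were the 10 genes, KRT19, up to 3 genes per list of highest RPKM above the floor in all libraries, list genes past the adjusted threshold, all 3 deletion genes, genes overlapping the 10 and the most similar profiles. List genes named as absent, for an unadjusted p or as a relative were chosen after their values were seen. PCR copies were not told apart by molecular identifiers, so floors and intervals hold for counting error alone. Values of 2 list genes are not reported here. Upstream sequences that overlap an annotated exon of their gene were not printed.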

Additional observations from a re-analysis of the deposited data

Results flagged for a closer look

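GATA6 in EV replicate 1 stood apart from the other EV libraries. Its level was 4.10 log2 CPM against 3.85 to 3.86 in the other 3, a gap of 0.946 of the range of the group, above Dixon's 95% critical value for 4 libraries. In all, 8 groups of 4 libraries were examined (GATA6, FOXA1, NKX2-1 and NAPSA in EV and in KRT19), and chance flags about 1 in 20. The part of this library in the GATA6 difference is given by the value without it, a log2 fold change of -0.15.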

How the results depend on the processing

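In each of 15 alternatives GATA6 was lower in the KRT19 group (-0.24 to -0.15 on the log2 scale) without passing the adjusted threshold (adjusted p 0.480 to 1.000). Its unadjusted p rose above 0.05 without EV replicate 1 (0.104), without KRT19 replicate 1 (0.0685), without KRT19 replicate 4 (0.0502) and with the replicate block (0.0546). FOXA1, near 0, reversed to 0.0091 with limma-voom, to 0.052 without EV replicate 1, to 0.057 without KRT19 replicate 1 and to 0.024 without KRT19 replicate 4, over a range of -0.13 to 0.057 in fits that left out 1 library, and the stricter filter did not test it. The number of genes above the floor in all libraries was 2 of 10 with 10 counts or 0.5 CPM as the floor and without any 1 library, and 4 with 1 count, when NKX2-1 and NAPSA joined. Of all genes, 1 passed the adjusted threshold. DESeq2 gave 5, limma-voom 8 and a looser filter (30250 genes with any count) 71, against 1 to 5 when 1 library was left out, with 5 without KRT19 replicate 3 and 3 without EV replicate 1. Unadjusted p-values under 0.05 were found for 791 genes, against 1337 in limma-voom, 1559 under the looser filter, 451 with the replicate block and 620 to 1228 when 1 library was left out, the most without KRT19 replicate 1. Their share higher in KRT19 was 52.7%, and 40.5% with upper-quartile scaling. The cause was not tested. Same-numbered libraries had residual correlations of -0.159 to 0.0567, so these numbers were not taken as pairs, and the replicate block gave 1 gene past the adjusted threshold. The looser filter also tested NKX2-1 (log2 fold change -0.049 ± 0.69 SE), NAPSA (-0.26 ± 0.69 SE) and SFTPD, which rests on 1 count. Depth limits what can be said of NKX2-1, NAPSA and the genes at 0.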

Other observations

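NKX2-1 had 3 or 4 counts in every library, and the variance of its counts over the 8 libraries was 0.0794 of their mean. For NAPSA, with the same total, the variance was 1.01 of the mean, for FOXA1 1.15 and for GATA6 3.03. A Poisson count has a ratio of 1.

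KLF5, an epithelial factor of the lung and gut chosen after its value was seen, was above the floor in all 8 libraries at 4.02 ± 0.229 RPKM (SD, n = 8), while ELF3 and GRHL2, epithelial factors of the same list, had at most 2 and 0 counts.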
